A study of Mus musculus with 8 samples.

Results

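The kappa light chain of mouse antibodies takes its variable domain from a germline Igkv segment, and the 160 genes whose symbol starts with Igkv and a digit were followed through bone marrow macrophages and plasma cells. They were chosen by symbol alone, out of 47643 genes in the table of macrophages and 52458 in the table of plasma cells, and all 160 were found in both. GENCODE M21 annotates 100 of them as V genes and 60 as V pseudogenes. All lie on GRCm38 chromosome 6 between bases 67555497 and 70704177. The samples were from wild-type B6 mice. CD138-purified, GFP-positive Vk*MYC myeloma cells had been injected into the tibia of the mice with tumour. From their marrow, F4/80 high and CD11b low tumour-associated macrophages (TAM) were sorted on GFP: contact TAM are the GFP-positive cells, labelled as in contact with myeloma cells (n = 2), and non-contact TAM the GFP-negative ones (n = 2). Macrophages from the marrow of naive mice (n = 2) served as controls, and 2 further libraries are labelled only as plasma cells. The study's design names both Vk*MYC myeloma and polyclonal plasma cells of naive mice as sorted, and the labels do not say which of these the 2 plasma cell libraries hold. For the TAM, replicates 1 and 2 are the mouse numbers of the labels. The sources used here do not say how many animals or cells gave each library, so spread between replicates may be partly technical.

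In a developing B cell the recombinase joins a single Igkv segment to a single joining segment (Igkj), and this rearranged exon is spliced to the constant gene Igkc. A plasma cell and all its descendants keep that choice. A clone therefore carries the same Igkv segment in every cell, while a mixed population of B cells or plasma cells carries many. Macrophages do not rearrange the locus. In the Vk*MYC model the MYC transgene is itself under the control of kappa light chain regulatory elements. Gene counts do not tell a rearranged transcript from an unrearranged one, and in bulk RNA a smaller number of cells of a type cannot be told apart from less RNA per cell.

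A single segment, Igkv5-48, headed the list in all 6 macrophage libraries, so its germline sequence is shown beside that of its closest relative, Igkv5-45. Igkv5-48 (ENSMUSG00000076563.2, chromosome 6, 69726573 to 69727138, minus strand) and Igkv5-45 (69775750 to 69776344, minus strand) agree at 296 of 345 aligned coding bases, an identity of 85.8%. The last 300 coding bases of each (48 to 347 of 347), from the GENCODE M21 transcripts, run 5′ to 3′ with capitals at the 43 bases that differ from the other segment or have no partner there.
Igkv5-48: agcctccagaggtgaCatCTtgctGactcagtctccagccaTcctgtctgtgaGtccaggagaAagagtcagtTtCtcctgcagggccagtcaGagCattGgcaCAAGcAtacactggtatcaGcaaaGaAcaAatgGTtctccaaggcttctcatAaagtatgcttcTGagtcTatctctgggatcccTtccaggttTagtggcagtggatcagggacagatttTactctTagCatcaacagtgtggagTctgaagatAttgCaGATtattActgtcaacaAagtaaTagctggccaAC
Igkv5-45: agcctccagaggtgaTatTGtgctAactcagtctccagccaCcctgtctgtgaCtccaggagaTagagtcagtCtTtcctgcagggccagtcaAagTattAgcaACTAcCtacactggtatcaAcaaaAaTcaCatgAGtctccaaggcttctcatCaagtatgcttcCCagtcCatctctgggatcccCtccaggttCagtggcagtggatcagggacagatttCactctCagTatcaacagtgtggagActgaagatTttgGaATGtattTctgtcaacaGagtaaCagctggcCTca
No run of 50 bases in Igkv5-48 occurs in any other Igkv segment. This was not so for many of its relatives: 73 of the 160 segments have another Igkv segment at 95% identity or more, and counts of such pairs may be divided in a way that depends on the authors' handling of ambiguous reads.

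The 3′ end of a germline segment gives the first residues of the third complementarity-determining region, the loop formed where V and J meet. These ends are shown for Igkv5-48 and for 7 of the other segments that ranked among the first 3 of a library, from the tyrosine codon of the conserved stretch before the loop. The bases after the conserved cysteine codon are in capitals.
Igkv5-48: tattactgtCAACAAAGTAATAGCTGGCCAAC
Igkv1-110: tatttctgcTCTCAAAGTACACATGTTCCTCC
Igkv8-30: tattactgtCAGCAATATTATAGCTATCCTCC
Igkv10-96: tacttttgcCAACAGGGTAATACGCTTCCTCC
Igkv3-2: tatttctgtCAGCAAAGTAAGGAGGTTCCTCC
Igkv12-44: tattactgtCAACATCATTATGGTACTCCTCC
Igkv14-126: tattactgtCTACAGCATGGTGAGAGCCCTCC
Igkv19-93: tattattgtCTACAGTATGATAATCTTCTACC
The 8 ends shown have the same length, 23 bases after the cysteine codon. Of the other segments that ranked among the first 3, Igkv5-39, Igkv6-15 and Igkv15-103 also have 23, and Igkv8-21 has 20. The motif CCTCC near the end occurs in 53 of the 131 segments in which the conserved codons were found. Igkv5-48 does not hold it in this window, and neither do Igkv19-93, Igkv6-15, Igkv8-21 and Igkv15-103.

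Library totals ran from 28887725 to 46873056 counts in macrophages and were 81792139 and 38343783 in plasma cells. Adgre1, which encodes the sort marker F4/80, had 519 to 1223 CPM (counts scaled to the library total) in macrophages, against 4.76 and 7.02 CPM in plasma cells. The 10 macrophage markers summed to 15593 to 27057 CPM in macrophages and to 358 and 429 CPM in plasma cells, but several were low in contact TAM. Vcam1, an adhesion molecule of resident marrow macrophages, had 260 and 153 CPM in contact TAM, 5063 and 5805 CPM in non-contact TAM, and 8636 and 4335 CPM in naive macrophages. The receptor genes Mertk (42.7 and 15.6 CPM in contact TAM, 419 to 446 CPM in non-contact TAM) and Cd163 (8.47 and 7.14 CPM in contact TAM, 79.2 and 516 CPM in non-contact TAM) were low there too, whereas Csf1r and Lyz2 were not. Itgam, which encodes the sort marker CD11b, was higher in contact TAM (215 and 232 CPM) than in non-contact TAM (73 and 84 CPM). It had 245 and 331 CPM in naive macrophages. Replicate 2 of non-contact TAM stood apart from the other macrophage libraries. The plasma cell surface marker Sdc1 (CD138) had 417 CPM in it and 3.73 to 10.8 CPM in the other 5 macrophage libraries. Folds that move with this library are given with and without it.

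Summed over the 160 segments, Igkv counts were lowest in contact TAM. They made up 0.00899% and 0.013% of all counts in contact TAM, 0.0404% and 0.994% in non-contact TAM, and 0.0463% and 0.0583% in naive macrophages. In plasma cells they made up 6.18% and 8.34%. In CPM, contact TAM had 89.9 and 130, non-contact TAM 404 and 9939, and naive macrophages 463 and 583. Both libraries of contact TAM lay below all other libraries, and replicate 2 of non-contact TAM lay far above the other macrophages. Igkc, the constant gene to which every kappa segment is spliced, had 223 and 298 CPM in contact TAM, 1063 and 23693 CPM in non-contact TAM, and 1364 and 1768 CPM in naive macrophages. Igkv counts per 100 Igkc counts stayed within a narrow range, at 40.3 and 43.6 in contact TAM, 38.0 and 41.9 in non-contact TAM, 34 and 33 in naive macrophages, with 31.6 and 32.4 in plasma cells. The ratio of the variable to the constant part thus varied far less than the levels did. It was still ordered, with every TAM library above both naive libraries, and these above both plasma cell libraries.

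**Figure D1:**
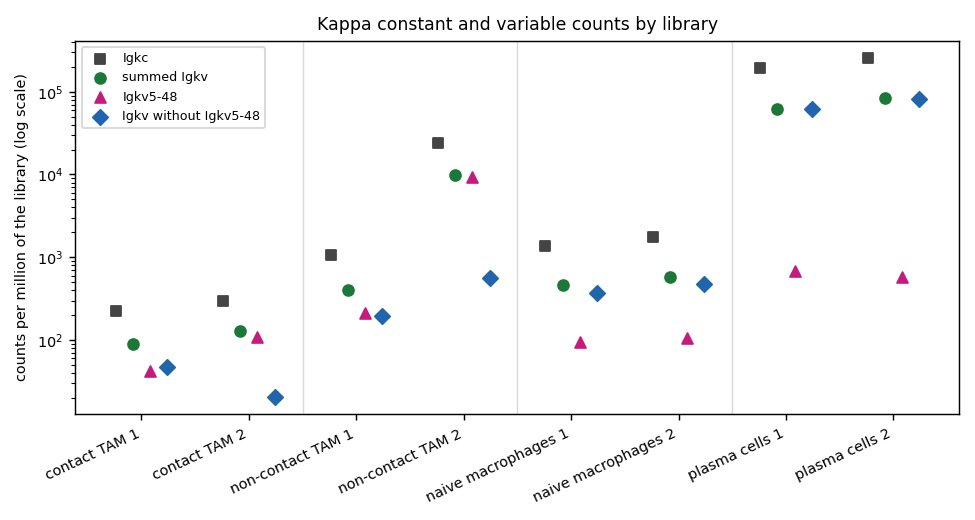
CPM on a log axis for Igkc, the summed Igkv segments, Igkv5-48 alone and the Igkv segments without Igkv5-48, with one point per measure and library. Contact TAM have the lowest summed Igkv values (89.9 and 130), and Igkv5-48 lies above the summed other segments in replicate 2 of contact TAM (110 against 20.4) and in both replicates of non-contact TAM.

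Igkv5-48 was the leading segment in all 6 macrophage libraries and in neither plasma cell library. It held 47.0% of Igkv counts (1879 of 3998, 95% Wilson interval 45.5 to 48.5) and 84.3% (4615 of 5476, 83.3 to 85.2) in contact TAM. It held 51.8% (8667 of 16716, 51.1 to 52.6) and 94.3% (291137 of 308582, 94.3 to 94.4) in non-contact TAM. The mice with the same number had similar shares, near one another for mouse 1 and above 80% for mouse 2. In naive macrophages the share was 20.6% (4484 of 21717, 20.1 to 21.2) and 18.2% (3060 of 16838, 17.6 to 18.8). In plasma cells Igkv5-48 ranked 26 and 43, with 1.1% and 0.689%. As a level, Igkv5-48 had 42.2 and 110 CPM in contact TAM, 210 and 9377 CPM in non-contact TAM, 95.7 and 106 CPM in naive macrophages, and 677 and 575 CPM in plasma cells. Contact TAM and naive macrophages overlapped in this level although their shares were far apart, with the other segments at 47.6 and 20.4 CPM in contact TAM and at 368 and 477 CPM in naive macrophages.

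**Figure D2:**
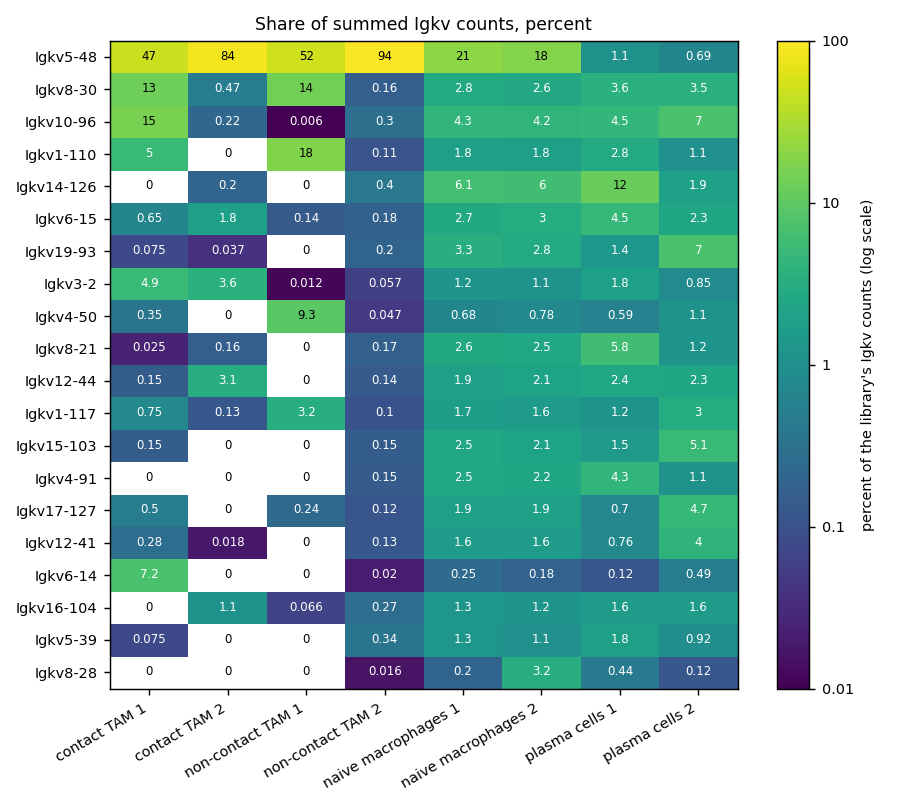
Percent of each library's summed Igkv counts, on a log colour scale, for the segments that ranked among the first 5 in at least 1 library (rows) in the 8 libraries (columns), with white for 0 counts. Igkv5-48 fills the top row in the macrophages. The 2 naive libraries have nearly the same column except for Igkv8-28, with 43 counts in replicate 1 and 536 in replicate 2.

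Behind Igkv5-48 the libraries of tumour-bearing mice differed from mouse to mouse. In replicate 1 of contact TAM, Igkv10-96 followed with 617 counts (15.4%), Igkv8-30 with 533 (13.3%), Igkv6-14 with 287 (7.18%), Igkv1-110 with 200 (5%) and Igkv3-2 with 197 (4.93%). In replicate 2 the followers were Igkv3-2 with 198 counts (3.62%) and Igkv12-44 with 172 (3.14%). In replicate 1 of non-contact TAM, Igkv1-110 had 2964 counts (17.7%), Igkv8-30 had 2335 (14.0%) and Igkv4-50 had 1561 (9.34%). Each of these 3 libraries had 90% of its Igkv counts in 3 to 6 segments.

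The libraries of mouse 1 had some of these followers in common and others not. Igkv8-30 held 13.3% in contact TAM and 14.0% in non-contact TAM of mouse 1, against 0.475% and 0.162% in the same groups of mouse 2. Igkv1-110 had 200 counts in contact TAM and 2964 in non-contact TAM of mouse 1, and it shares 44.2% of its 50-base runs with other segments, its closest being Igkv1-117 at 97.2% identity. In contrast, Igkv10-96 had 617 counts in contact TAM of mouse 1 and 1 count in non-contact TAM of that mouse. Igkv6-14 had 287 and 0 counts in the same order, while Igkv4-50 had 14 and 1561 and Igkv17-121 had 0 and 396.

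In replicate 2 of non-contact TAM and in the naive libraries the followers were many and small. After Igkv5-48 that TAM library had Igkv14-126 with 1225 counts (0.397%) and Igkv5-39 with 1050 (0.340%). The naive libraries had Igkv14-126 in second place with 1330 counts (6.12%) and 1007 counts (5.98%), and Igkv10-96 in the third place with 934 (4.30%) and 702 (4.17%). Plasma cells had no dominant segment: Igkv14-126 led replicate 1 with 11.9%, ahead of Igkv8-21 with 5.84% and Igkv6-15 with 4.54%, and Igkv19-93 led replicate 2 with 7.04%, ahead of Igkv10-96 with 7.02% and Igkv15-103 with 5.08%. The same Igkv14-126 was at 1.92% in plasma cell replicate 2, and Igkv19-93 at 1.37% in replicate 1, so the plasma cell libraries differed in which segments led.

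Diversity was lower in the 4 TAM libraries than in the naive and plasma cell libraries. The inverse Simpson index, the number of equally used segments that would give the same concentration, was 3.67 and 1.40 in contact TAM, 3.03 and 1.12 in non-contact TAM, 16.8 and 19.9 in naive macrophages, with 28.1 and 33.3 in plasma cells. The group means were 2.53 ± 1.60 in contact TAM, 2.08 ± 1.35 in non-contact TAM, 18.3 ± 2.19 in naive macrophages and 30.7 ± 3.62 in plasma cells (SD, n = 2 each). The TAM groups overlapped, and all TAM libraries lay below both naive libraries. The number of segments that held 90% of Igkv counts was 6 and 3 in contact TAM, 4 and 1 in non-contact TAM, 44 and 45 in naive macrophages, with 47 and 41 in plasma cells. With 2 libraries per group an exact permutation test of such values cannot reach a p of 0.05, and none was made.

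The breadth of detection did not follow the same order. At least 1 count was found for 42 and 48 segments in contact TAM, 22 and 105 in non-contact TAM, 111 in each naive library, and 139 and 132 in plasma cells. Since totals differ, each library was also reduced to 3998 Igkv counts, the smallest total, by the closed formula for thinning. The expected number of segments was then 42 and 44.8 in contact TAM, 18.3 and 58.3 in non-contact TAM, 93.5 and 96.1 in naive macrophages, with 91.1 and 85.3 in plasma cells. Both naive libraries lay above both plasma cell libraries on this scale, and all TAM libraries lay below them.

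**Figure D3:**
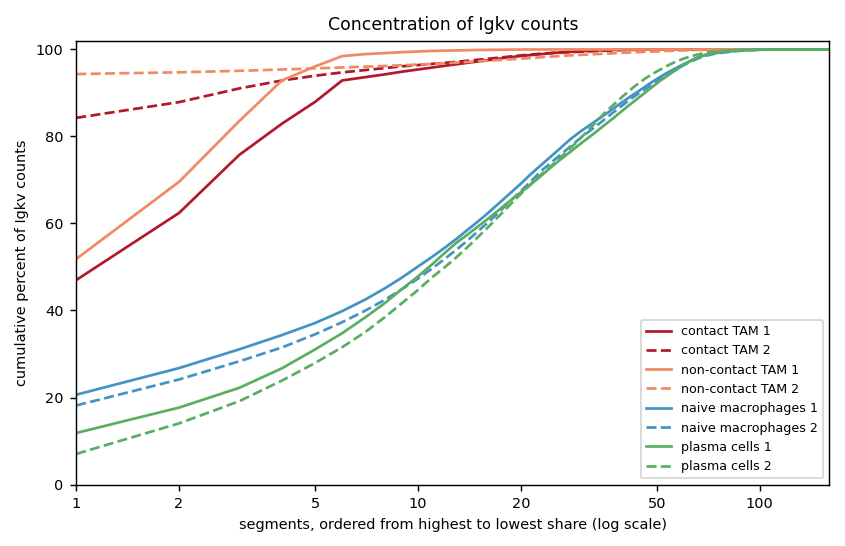
Cumulative percent of Igkv counts against the number of segments taken from the highest share down (log axis), with a solid line for replicate 1 and a dashed line for replicate 2 of each group. The 4 TAM libraries start at 47.0% or higher, and the naive and plasma cell libraries need 41 to 47 segments to reach 90%.

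With Igkv5-48 set aside, an alternative chosen after its counts were seen, the libraries regrouped. The inverse Simpson index of the remaining segments was 5.41 and 8.40 in contact TAM, 3.78 and 35.7 in non-contact TAM, 37.3 and 38.8 in naive macrophages, with 27.6 and 32.8 in plasma cells. Replicate 2 of non-contact TAM, the most concentrated library of all with Igkv5-48 counted, then lay with the naive libraries. Overlap, the summed smaller share of each segment in a pair of libraries, was 89.5% and 87.7% between this library and the naive ones without Igkv5-48, and 26.3% and 23.8% with it. The naive libraries overlapped by 91.9% with each other on the same scale, and the plasma cell libraries by 61.3%. In level, the segments other than Igkv5-48 summed to 562 CPM in replicate 2 of non-contact TAM and to 368 and 477 CPM in naive macrophages. Whether these libraries share RNA from a common source was not tested.

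The other TAM libraries overlapped the naive ones less. Without Igkv5-48, replicate 1 of non-contact TAM overlapped the naive libraries by 13.3% and 12.6%, and the contact TAM overlapped them by 24.9% and 24.4% (replicate 1) and 36% and 35.9% (replicate 2). Between contact TAM and non-contact TAM of the same mouse the overlap was 38.1% for mouse 1 and 36.6% for mouse 2. Across mice it was 22.9% for contact TAM of mouse 1 with non-contact TAM of mouse 2, and 5.22% for the reverse pair. The 36.6% of mouse 2 was close to the overlap of its contact TAM with the naive libraries. It was also close to the overlap with the plasma cell libraries (36.9% and 33.1%). These remaining counts numbered 2119 and 861 in contact TAM, the smallest totals of the 8 libraries.

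**Figure D4:**
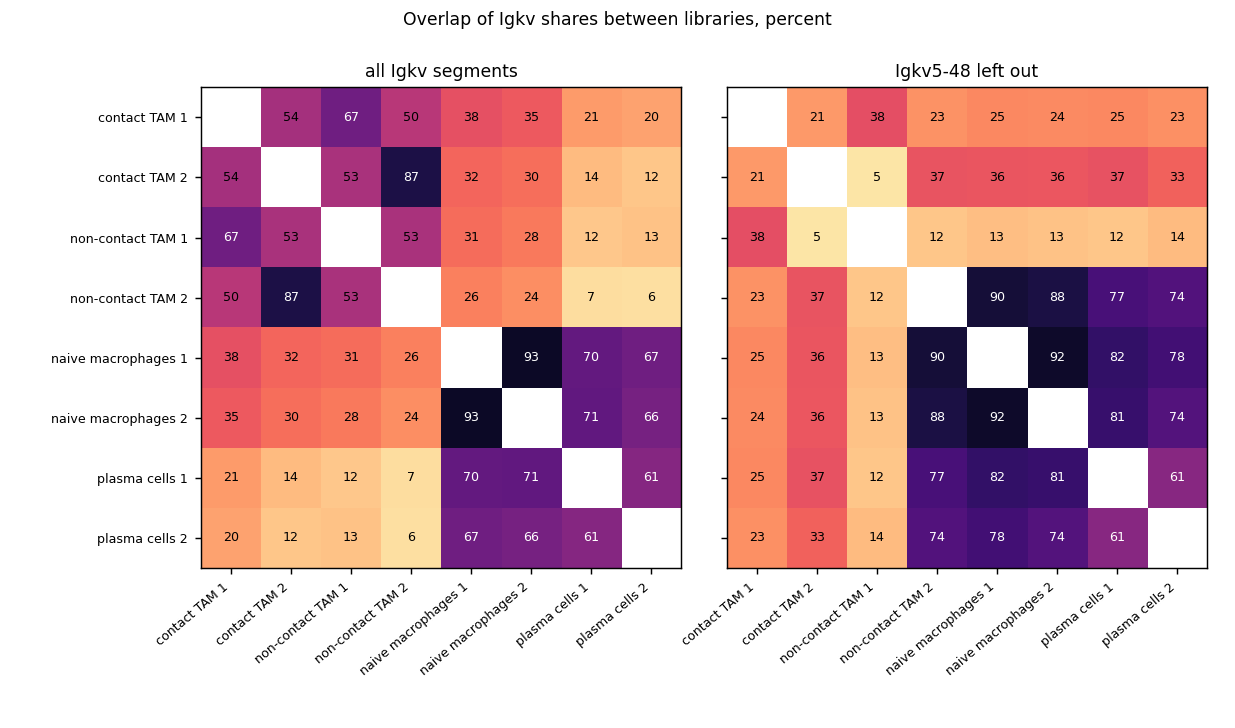
Overlap of Igkv shares between each pair of libraries in percent, with all segments (left) and with Igkv5-48 left out (right). On the right, replicate 2 of non-contact TAM and the naive libraries form a block at 87.7% to 91.9%, whereas with all segments that library overlaps most with contact TAM of the same mouse (87.2%).

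The joining segments were counted as a further readout of the locus. Igkj2 held 41.3% (57 of 138) and 82.7% (129 of 156) of Igkj counts in contact TAM, 74.2% (524 of 706) and 92.1% (8537 of 9266) in non-contact TAM, 39.6% and 41.8% in naive macrophages, with 36.6% and 31% in plasma cells. The libraries with the highest Igkv5-48 shares, both of mouse 2, also had the highest Igkj2 shares. Gene counts do not show which V and J lay on the same transcript. The lambda light chain, the alternative to kappa, was counted through its constant genes Iglc1, Iglc2 and Iglc3. Their counts per 100 Igkc counts were 4.30 and 9.92 in contact TAM, 1.13 and 0.537 in non-contact TAM, 6.76 and 6.66 in naive macrophages, with 4.64 and 5.31 in plasma cells. Lambda was lowest relative to kappa in both libraries of non-contact TAM. Of the heavy chain constant genes, Ighg2b had 290 and 397 CPM in contact TAM, 806 and 51674 CPM in non-contact TAM, and 580 and 676 CPM in naive macrophages. For this gene both contact TAM libraries were lowest and both non-contact TAM libraries highest among the macrophages, an order that the other heavy chain genes did not keep. Igha had 0.517 and 34 CPM in contact TAM, 1.43 and 1161 CPM in non-contact TAM, and 726 and 1083 CPM in naive macrophages, so that replicate 1 of non-contact TAM lay far below the naive libraries. Ighg1 and Ighg2c were also lower in that library (0.677 and 16.4 CPM) than in naive macrophages (80.4 and 109 CPM, and 136 and 172 CPM). Contact TAM were low in both genes too, with 0.247 and 1.04 CPM for Ighg1 and 8.56 and 4.96 CPM for Ighg2c. Replicate 2 of non-contact TAM had 138 CPM for Ighg1 and 217 CPM for Ighg2c. Ighm, the constant gene of IgM, ranged from 735 to 1518 CPM over all macrophages, and its lowest and highest values were both in non-contact TAM.

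Position in the locus was uneven in the same libraries. Igkv5-48 lies 995.4 kb upstream of Igkj1 and is the 50th segment counted from the joining genes. The segments face both ways, 75 with the joining genes and 85 against them, and a segment that faces against them, as Igkv5-48 does, joins by inversion of the DNA between. Segments that face with the joining genes held 13.1% and 7.07% of Igkv counts in contact TAM, 23.7% and 2.29% in non-contact TAM, 31.9% and 31.4% in naive macrophages, with 39.8% and 38.8% in plasma cells. Without Igkv5-48 these shares were 24.6% and 44.9%, 49.2% and 40.6%, 40.2% and 38.3%, and 40.2% and 39% in the same groups, a spread of 24.6% to 49.2% where it was 2.29% to 39.8% with it counted. The segments nearest the joining genes include Igkv3-2, 23.5 kb away, which had 4.43 and 4.70 CPM in contact TAM, 0.0484 and 5.67 CPM in non-contact TAM, and 5.44 and 6.37 CPM in naive macrophages. Its level was similar in 5 of the 6 macrophage libraries and lowest in replicate 1 of non-contact TAM.

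**Figure D5:**
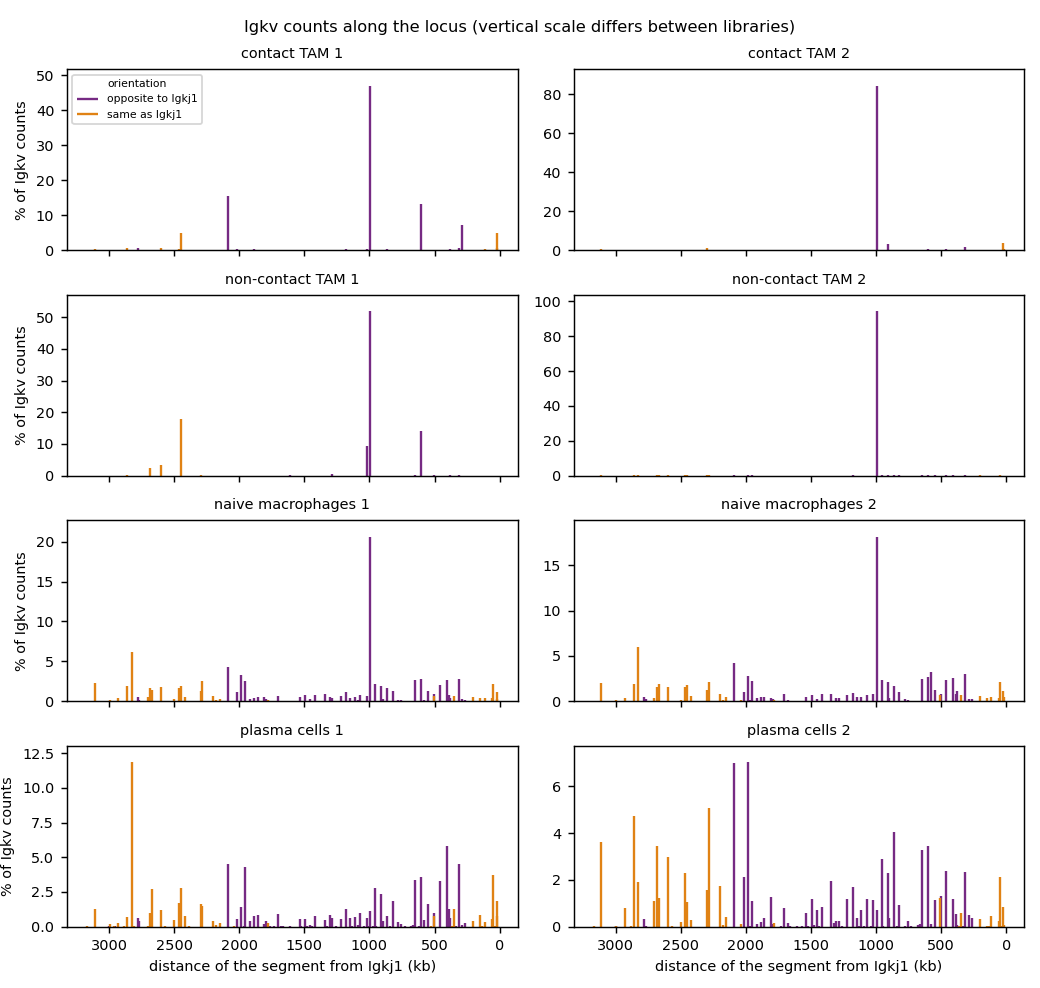
Percent of Igkv counts at each segment against its distance from Igkj1 in kb, with one panel per library, a vertical scale of its own in each, and colour for orientation. Igkv5-48 is the tallest line in all 6 macrophage panels, at 995.4 kb, and counts spread over the whole locus in naive macrophages and plasma cells.

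The pseudogene segments, which cannot make a chain, were nearly silent. They held 2 and 7 counts in contact TAM, 24 and 38 in non-contact TAM, 40 and 40 in naive macrophages, with 9349 and 2404 in plasma cells, which was at most 0.238% of a library's Igkv counts. All 19 segments with 0 counts in all 8 libraries were pseudogenes, and 96 of the 100 V genes had at least 10 counts in both plasma cell libraries. Only 3 segments had at least 10 counts in every library, namely Igkv5-48, Igkv8-30 and Igkv6-15. By family, Igkv5 led all macrophage libraries through Igkv5-48, whereas Igkv4 led both plasma cell libraries with 14.9% and 15.7%. Igkv4 is also the largest family, with 33 of the 160 segments. Igkv6, with 9 segments, came next with 14.8% and 11.2%.

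The first comparison set contact TAM against non-contact TAM. Igkv levels were lower in contact TAM for 79 of the 81 segments that passed the filter on low counts, but none passed the test. The sign of the median fold change turned when replicate 2 of non-contact TAM was left out. In edgeR's quasi-likelihood test on all 15522 genes 0 Igkv segments were called at an adjusted p under 0.05, with 30 at an unadjusted p under 0.05. The background was 0% called over all genes, with 2653 genes at an unadjusted p under 0.05. The segments passed the filter mainly through the naive libraries, where 78 had at least 10 counts in both, and replicate 2 of non-contact TAM, so these counts describe and do not support a difference. The median log2 fold change was -5.57 over the 81, or -4.51 with the 21 segments at 0 in contact TAM set to the limit that 3 counts over the group allow, beside 0.00 over all genes. Without replicate 2 of non-contact TAM the median turned to 1.83. Replicate 1 had counts for 22 of the 160 segments, so this median depends on the prior count of the fit. The summed Igkv level of replicate 1, 404 CPM, still lay above the 89.9 and 130 CPM of contact TAM. The libraries did not overlap, with contact TAM lower, for 15 of the 81, or 18.5%, against a background of 22.3% of all genes tested.

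Among the segments with the smallest p, Igkv17-121 had 0 and 0.0475 CPM in contact TAM and 9.57 and 11.1 CPM in non-contact TAM (log2 fold change -8.59 ± 0.96 SE, edgeR adjusted p = 0.065). This is a ratio of 740 to 2 counts, or 443-fold after scaling to library totals, with a 95% counting interval of 122 to 3662. Igkv17-121 shares 37.5% of its 50-base runs with other segments, the closest being Igkv17-127 at 97.5% identity. Igkv1-117 had 0.674 and 0.166 CPM in contact TAM and 13.0 and 9.95 CPM in non-contact TAM (-4.76 ± 0.74, adjusted p = 0.119). Unlike most segments, these 2 were at similar levels in both libraries of non-contact TAM. Igkv4-59 had 0 and 0.0237 CPM against 1.86 and 1.96 CPM, and Igkv8-24 had 0.112 and 0.0475 CPM against 0.870 and 6.31 CPM. Of its 50-base runs, Igkv4-59 shares 72.9% with other segments, the closest being Igkv4-70 at 97.4% identity. Igkv4-50 had 0.315 and 0 CPM in contact TAM and 37.7 and 4.67 CPM in non-contact TAM. For Igkv5-48 itself the log2 fold change was -5.92 ± 1.73 (adjusted p = 0.205), but -1.49 (adjusted p = 0.264) without replicate 2 of non-contact TAM. Without that library Igkv8-24 was at -3.43, while Igkv17-121 (-8.55), Igkv4-59 (-7.03), Igkv1-117 (-4.98) and Igkv4-50 (-7.90) stayed close to or beyond their values with it.

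With the mouse number as a block edgeR called 4 segments in this comparison, all lower in contact TAM, beside 0.38% of all genes. They were Igkv17-121 (-8.66), Igkv6-32 (-8.11), Igkv4-50 (-7.38) and Igkv14-126 (-7.08), each at an adjusted p of 0.0446. DESeq2 called 24 segments, all lower, beside 10.3% of all genes, and edgeR with no filter called 56 of 124, beside 7.2%. With bias-adjusted quasi-dispersions edgeR called Igkv17-121 alone, beside 0.142% of all genes. Without replicate 1 of non-contact TAM edgeR called 49, beside 8.86% of all genes, and without replicate 2 it called 0.

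The second comparison set contact TAM against naive macrophages. Nearly all tested segments were at lower levels in contact TAM, with Igkv5-48 and Igkv6-14 overlapping between the groups. Of the 160 segments 98 had both libraries of contact TAM below both naive libraries, and of the 81 tested 79 did so, against 36.7% of all genes tested. The 81 had been kept mainly for their counts in naive macrophages and in replicate 2 of non-contact TAM, and had to be high there. Of 78 segments with at least 10 counts in both naive libraries 21, or 26.9%, had 0 counts in both libraries of contact TAM, beside 0.522% (71 of 13614) of all genes with such naive counts, a background that includes genes of far higher level. The median log2 fold change was -5.64 over the 81, or -5.11 with segments at 0 set to their limit, beside 0.00 over all genes. In edgeR 0 of the 81 were called, with 40 at an unadjusted p under 0.05, beside 0.219% called and 2270 genes at an unadjusted p under 0.05 among all genes.

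The 5 segments with the smallest p were lower in contact TAM by large factors. Igkv17-121 had 0 and 0.0475 CPM in contact TAM and 7.45 and 9.10 CPM in naive macrophages (log2 fold change -8.13 ± 0.94 SE, edgeR adjusted p = 0.0529). Igkv6-32 had 0 and 0.0475 CPM against 12.0 and 14.4 CPM, a ratio of 980 to 2 counts, or 560-fold with a counting interval of 155 to 4633. Neither passed. Igkv1-117 (-4.19 ± 0.72, adjusted p = 0.104), Igkv8-24 (-5.61 ± 1.19, adjusted p = 0.153) and Igkv4-59 (-6.86 ± 1.15, adjusted p = 0.1) followed. Igkv5-48 overlapped between the groups, with a log2 fold change of -0.24 ± 1.40 (adjusted p = 0.95), which was 0.32 without replicate 1 of contact TAM and -1.14 without replicate 2. Igkv6-14 had 6.45 and 0 CPM in contact TAM and 1.17 and 1.07 CPM in naive macrophages.

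Whether segments were called here depended on the libraries that entered the fit. edgeR called 38 without replicate 1 of non-contact TAM, beside 3.13% of all genes, and 34 without replicate 2, beside 2.92%. In a fit of the 4 libraries of contact TAM and naive macrophages alone, added after the data were seen, it called 44 of 77, beside 4.47% of all genes. DESeq2 called 25 of 81, beside 7.84%. With no filter edgeR called 56 of 124, beside 5.53%, and with bias-adjusted quasi-dispersions Igkv17-121 alone, beside 0.361%. All of these calls were of lower levels in contact TAM.

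The third comparison set non-contact TAM against naive macrophages, and here the 2 TAM libraries went different ways. Igkv5-48 was higher in both, at 210 and 9377 CPM in non-contact TAM and 95.7 and 106 CPM in naive macrophages (log2 fold change 5.68 ± 1.71 SE, edgeR adjusted p = 0.245). DESeq2 called this segment and no other, with an adjusted p of 0.0117, beside 8.03% of all genes. Without replicate 1 of non-contact TAM edgeR also called it alone (6.62), beside 2.8% of all genes, whereas without replicate 2 its log2 fold change was 1.23 (adjusted p = 0.247). In edgeR 0 of 81 segments were called, with 1 at an unadjusted p under 0.05, beside 0% called and 2354 genes at an unadjusted p under 0.05 among all genes. Higher levels in both libraries, with no overlap, were found for 6 of the 81 (Igkv5-48, Igkv4-50, Igkv1-110, Igkv8-30, Igkv1-117 and Igkv17-121), or 7.41%, against 16.6% of all genes. Lower levels with no overlap were found for Igkv9-123 and Igkv8-19, which is 2.47% of the 81, against 28.9% of all genes. The median log2 fold change was -0.56 over the 81, beside 0.06 over all genes. It was 0.38 without replicate 1 of non-contact TAM and -8.77 without replicate 2, where edgeR called 9 segments, all lower, beside 1.66% of all genes. Replicate 1 had counts for 22 of the 160 segments, so the median without replicate 2 depends on the prior count of the fit. With no filter edgeR called 4 of 124, beside 5.96%, with Igkv5-48, Igkv4-50 and Igkv1-110 higher and Igkv8-28 lower.

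Single segments showed the split between these libraries. Igkv4-50 had 37.7 and 4.67 CPM in non-contact TAM and 3.16 and 4.53 CPM in naive macrophages (2.63 ± 1.33, adjusted p = 0.409). Igkv1-110 had 71.7 and 11.4 CPM in non-contact TAM and 8.53 and 10.5 CPM in naive macrophages (2.29 ± 1.68, adjusted p = 0.587). In both, replicate 1 was high and replicate 2 lay close to the naive libraries. Igkv14-126 had 0 and 39.5 CPM in non-contact TAM and 28.4 and 34.9 CPM in naive macrophages. Igkv8-28 had 0 and 1.61 CPM in non-contact TAM and 0.917 and 18.6 CPM in naive macrophages (-3.49 ± 2.24, adjusted p = 0.536), a difference within the spread of the naive pair. Igkv8-19, its relative, had 0.242 and 1.38 CPM against 1.51 and 6.61 CPM (-2.20 ± 1.57, adjusted p = 0.573).

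Markers of B-lineage cells were set beside the Igkv values, and each list behaved differently. The 10 plasma cell markers summed to 734 and 710 CPM in contact TAM, and to 845 and 5790 CPM in non-contact TAM. The sums were 768 and 925 CPM in naive macrophages and 64661 and 86391 CPM in plasma cells. In contact TAM most of the sum was Xbp1 (517 and 566 CPM), which had 332 and 389 CPM in naive macrophages. Jchain had 23.5 and 54.6 CPM in contact TAM and 335 and 450 CPM in naive macrophages. Similar sums thus hid differences between members. The 10 mature B cell markers summed to 152 and 171 CPM in contact TAM, 266 and 238 CPM in non-contact TAM, and 526 and 640 CPM in naive macrophages. Pre-B cell and recombination genes summed to 31 and 12.1 CPM in contact TAM, 15.9 and 20.8 CPM in non-contact TAM, and 95.3 and 131 CPM in naive macrophages. Of these lists, replicate 2 of non-contact TAM was thus high in plasma cell markers alone. Jchain gave 3500 CPM of that sum, and only Mzb1 (11 CPM) lay below both naive libraries (14 and 14.7 CPM). Mature B and pre-B sums were lower in all 4 TAM libraries than in both naive ones.

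In contact TAM over naive macrophages, where Igkv segments had a median log2 fold change of -5.64, the medians were -0.76 for plasma cell, -2.57 for mature B cell and -2.77 for pre-B genes. For these lists DESeq2 called 2 of 10, 7 of 10 and 5 of 9, beside 7.84% of all genes, and edgeR called 0, beside 0.219%. In contact TAM over non-contact TAM, where the Igkv median was -5.57, they were -3.43, -0.02 and 1.20, with 7, 1 and 2 called in DESeq2, beside 10.3%, and 0 in edgeR, beside 0%. Without replicate 2 of non-contact TAM these medians were -1.06, 0.98 and 2.58. In non-contact TAM over naive macrophages they were 2.87, -2.67 and -2.93, with 5, 6 and 6 called in DESeq2, beside 8.03%, and 0 in edgeR, beside 0%, and the Igkv median was -0.56. Without replicate 2 of non-contact TAM the 3 medians were 0.39, -3.25 and -5.13.

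The macrophage markers had a median of -1.54 in contact TAM over non-contact TAM (-1.81 without replicate 2 of non-contact TAM), with 7 of 10 negative. Over naive macrophages the median was -1.08, with 8 of 10 negative. The median over all genes was 0.00 in both comparisons. DESeq2 called 7 and 4 of the 10, beside 10.3% and 7.84% of all genes. In edgeR 0 were called in both, beside 0% and 0.219%. Contact TAM thus had lower levels of most of these markers as well as of Igkv segments. The joining chain gene Jchain, a plasma cell marker, had 23.5 and 54.6 CPM in contact TAM, 104 and 3500 CPM in non-contact TAM, and 335 and 450 CPM in naive macrophages. No marker of the plasma cell, mature B cell and pre-B lists was at 0 in every macrophage library. The part of these cells in the Igkv differences was not tested.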

How the data were processed

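RNA of 6 macrophage and 2 plasma cell samples was sequenced from SMART-Seq v4 libraries, per the labels' protocols. The authors deposited raw counts per gene, in a table for each cell class. The submitters' processing notes name, without a role, the builds mm10 and GRCm38, the aligner STAR, featureCounts and DESeq2 1.26. The sources used here give no annotation release, strand setting or treatment of ambiguous reads, which decide how reads spanning V, J and C are counted. Identifiers were matched to GENCODE M21 (47224 of 47643 in the macrophage table, and 48081 of 52458 symbols in the plasma cell table), and 0 columns were left without a sample.

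edgeR 4.0.16 (quasi-likelihood test, default quasi-dispersion, TMM, filterByExpr with minimum count 10) was fitted to all 6 macrophage libraries by group in R 4.3.3, with Benjamini-Hochberg adjustment over 15522 genes. Where no tool is named, an adjusted p comes from this test. Alternatives used DESeq2 1.42.0 and limma 3.58.1. Fits were also run on simulated data with the spread of contact TAM and naive libraries only. That simulation does not cover the spread of the non-contact pair. The plasma cell table was described without a test. Shares carry 95% Wilson intervals, and Biopython 1.88 aligned segments. Without molecular identifiers, intervals and the limit of 3 counts cover counting error only.

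Named segments are the first 3 of each library and, per comparison, the 5 with the smallest p when none was called. Others named (Igkv6-14, Igkv5-45, and those named for lack of overlap, for detection in every library or for calls under an alternative) were chosen after their values were seen. The members and lists were chosen with earlier results of these data known. Same-numbered TAM are taken as the same mouse, from the labels, and the difference between replicates correlated between the TAM groups with r = 0.152 over 15522 genes.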

Additional observations from a re-analysis of the deposited data

How the results depend on the processing

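The count of called segments was the result that moved most. For contact TAM over non-contact TAM it was 0 in the edgeR test, beside 0% of all genes. It stayed 0 with limma-voom, RLE size factors, a minimum count of 50 and immunoglobulin genes left out of the scaling. It was 24 with DESeq2, beside 10.3% of all genes, and 56 of 124 with no filter, beside 7.2%. Bias-adjusted quasi-dispersions gave 1 (Igkv17-121), beside 0.142%, and the mouse number as a replicate block gave 4, beside 0.38%. For contact TAM over naive macrophages it was 25 with DESeq2, beside 7.84% of all genes, and 56 with no filter, beside 5.53%. It was 1 (Igkv17-121) with bias-adjusted quasi-dispersions, beside 0.361%, and 44 in the fit of 4 libraries, beside 4.47%. For non-contact TAM over naive macrophages it was 1 (Igkv5-48) with DESeq2, beside 8.03% of all genes. With no filter it was 4 (Igkv5-48, Igkv4-50, Igkv1-110 and Igkv8-28), beside 5.96%. The share of all genes called thus moved between settings as well. Leaving out 1 library gave 0 to 49, 0 to 38 and 0 to 9 calls in the 3 comparisons, with every nonzero value reached without a library of non-contact TAM. The shares of all genes called beside these nonzero values are given with each comparison above. The cause of these movements was not tested. Of 17 single-segment fold changes under 233 alternatives, 1 turned its sign, Igkv5-48 in contact TAM over naive macrophages, whose range on leaving out 1 library was -1.14 to 0.32 (0.32 without contact TAM replicate 1). A total of 52 gained a call. None of the 17 was called at first, so none could lose a call.

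The mean Igkv percent and the inverse Simpson index moved by less than their spread without pseudogenes and without segments under 10 counts. With Igkv5-48 left out the mean Igkv percent was 0.0034% in contact TAM, 0.0378% in non-contact TAM (0.517% with it, within its spread) and 0.0422% in naive macrophages, and the mean index 6.91 in contact TAM, 19.7 in non-contact TAM and 38.0 in naive macrophages. Summed by family the index was 9.46 in naive macrophages and 10.3 in plasma cells, by construction with fewer classes. Igkv counts relative to counts outside immunoglobulin genes averaged 23.5% in plasma cells. Leaving out 1 replicate gave the other replicate's value: 0.00899% to 0.013% and 1.40 to 3.67 in contact TAM, 0.0404% to 0.994% and 1.12 to 3.03 in non-contact TAM, 0.0463% to 0.0583% and 16.8 to 19.9 in naive macrophages, and 6.18% to 8.34% and 28.1 to 33.3 in plasma cells. Depth limits the tail, since contact TAM had 3998 and 5476 Igkv counts in all.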
